A study of Mus musculus with 2 samples.

Results

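The genes described here code for receptors and bridging proteins with which phagocytes recognise dying cells: Mertk, Axl, Gas6, Pros1, Mfge8, Itgav, Itgb5, Stab1 and Cd36. They were taken by symbol, and all 9 were found once each among the 32589 features of the deposited count matrices. The cells were sorted as CD45low CD11b+ from the prefrontal cortex of C57BL/6 mice and read by single-cell RNA sequencing. The vehicle group and the group given corticosterone, the main glucocorticoid of rodents, by oral gavage had 1 library each, and the series treats the hormone as a model of depression. The number of animals per library, their sex and age, the dose and the duration are not given in the sources used here. Library, batch and treatment cannot be told apart. No test between groups was possible, every difference is between these 2 libraries, and all intervals are at the 95% level and cover counting error only.

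Dying cells expose phosphatidylserine on their surface, and phagocytes take them up by a process called efferocytosis. Mertk and Axl are receptor tyrosine kinases of the TAM family, which bind the lipid through soluble bridges. Gas6 bridges to both, and Pros1 to Mertk. Mfge8 links the same lipid to integrins that contain the αV chain, such as the pair of Itgav and Itgb5, while Stab1 and Cd36 are scavenger receptors with many ligands, phosphatidylserine or oxidised lipids among them. Microglia, the macrophages of the brain tissue, clear dying neurons and synapses, and border macrophages sit in the meninges and around vessels.

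Promoters are shown for Axl, Gas6 and Mfge8, because these were the members with a mean of at least 5 counts per 1000000 UMIs that differed at least 2-fold between the libraries in microglia-like cells. Each is the 250 bases upstream of the RefSeq start on the gene's strand, build GRCm38.p6, printed 5′ to 3′ with GC boxes (GGGCGG on either strand) in capitals. Axl lies at chr7:25788734-25788983, Gas6 at chr8:13494536-13494785 and Mfge8 at chr7:79149061-79149310, all on the minus strand.
Axl: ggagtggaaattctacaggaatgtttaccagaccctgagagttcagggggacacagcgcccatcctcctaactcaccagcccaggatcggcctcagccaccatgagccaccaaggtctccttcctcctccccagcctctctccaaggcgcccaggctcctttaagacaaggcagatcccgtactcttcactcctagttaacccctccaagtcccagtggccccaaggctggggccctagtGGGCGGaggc
Gas6: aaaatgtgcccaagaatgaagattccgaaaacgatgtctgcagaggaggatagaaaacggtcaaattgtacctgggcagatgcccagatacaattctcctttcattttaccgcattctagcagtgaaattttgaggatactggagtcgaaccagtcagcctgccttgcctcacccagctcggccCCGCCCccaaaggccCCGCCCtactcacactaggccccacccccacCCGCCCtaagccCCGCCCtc
Mfge8: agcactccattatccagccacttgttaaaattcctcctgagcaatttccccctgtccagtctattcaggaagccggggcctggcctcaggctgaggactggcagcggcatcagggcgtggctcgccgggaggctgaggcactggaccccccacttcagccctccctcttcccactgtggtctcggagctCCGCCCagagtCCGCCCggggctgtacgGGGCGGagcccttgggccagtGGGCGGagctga
The GC box was found 1 time upstream of Axl and 4 times each upstream of Gas6 and Mfge8. It was also found in Mertk, Pros1, Itgb5 and Cd36, so that 7 of the 9 members held it, and 32.7% of 32851 RefSeq promoters of that length do. The interferon-stimulated response element core (GAAA, any 2 bases, GAAA, in 2.98% of promoters) and a glucocorticoid response element (ACANNNTGT, in 5.84%) were found in none of the 9 windows. A gamma-activated site (TTCNNNGAA, in 7.02%) was found in that of Pros1 alone, 92 bases upstream of its start. All searches covered both strands, no matches of different motifs overlapped in these windows, and a match is a description of letters only.

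The vehicle library held 10500 cells after filtering and the corticosterone library 17883, with medians of 3220.5 and 3961 UMIs per cell, a UMI being a tag that marks 1 captured transcript. The libraries had 104 barcode sequences in common. Marker genes placed 7876 vehicle and 15255 corticosterone cells in a microglia-like class, and 1040 and 793 barcodes, 9.90% and 4.43% of the cells, in a border macrophage-like class that expressed all 11 of its markers. Border macrophages carry more CD45 than microglia, so a CD45low gate is meant to leave them out. The border macrophage-like barcodes were deep, with median depths of 6427.5 UMIs (vehicle) and 6628 UMIs (corticosterone), where microglia-like cells had 3209.5 and 4003. They also carried the microglia markers P2ry12, Tmem119, Siglech and Sall1 at a median of 0.812 times the microglia-like level in vehicle and 0.647 times in corticosterone. Their 11 border markers summed to 4377 counts per 1000000 UMIs of the class (CPM) in vehicle and 8408 CPM in corticosterone. Levels in that class are therefore those of barcodes holding RNA of both kinds, and fewer cells of a type and less RNA per cell cannot be told apart in them.

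In microglia-like cells, 3 members stood out between the libraries. Axl and Mfge8 were higher with corticosterone and Gas6 was lower, each by more than 2-fold. Of the 8 members with a mean of at least 5 CPM, 2 were at least 2-fold higher and 1 at least 2-fold lower, where 2.24% and 2.03% of 9673 genes at that level were. The median log2 ratio of the 8 was 0.35, beside -0.01 for all these genes. The other 5 counted members, Mertk, Pros1, Itgav, Itgb5 and Stab1, lay between -0.42 and 0.38. Cd36 was under the 5 CPM minimum in microglia-like cells and was not counted.

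**Figure D1:**
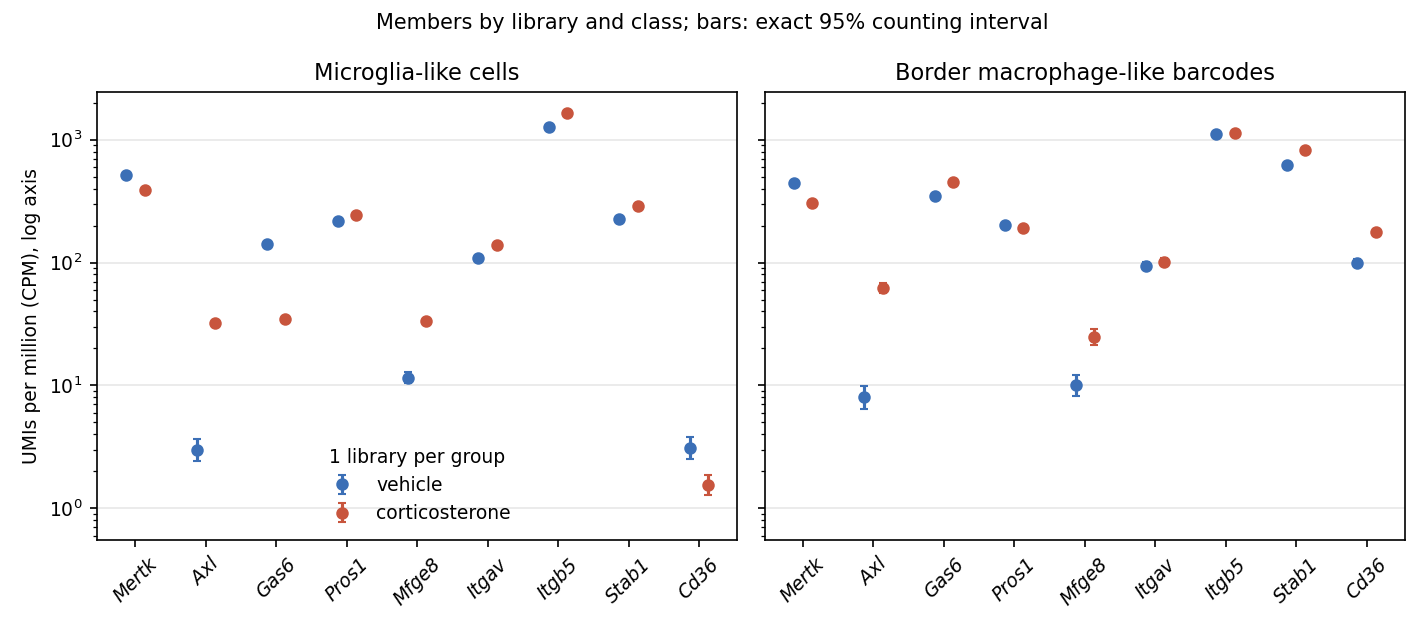
Level of each member in UMIs per 1000000 of its class (CPM, log axis) in microglia-like cells (left) and border macrophage-like barcodes (right), for the vehicle (blue) and corticosterone (red) library. Points are sums over all cells of 1 library with exact 95% counting intervals. Axl and Mfge8 are higher with corticosterone in both panels, and Gas6 is lower in the left panel, at 34.8 against 143 CPM.

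Mertk (ENSMUSG00000014361, chromosome 2, 128698956 to 128802894, plus strand, GRCm38) is the TAM receptor on which microglia rely for the uptake of dying cells. It stood at 520 CPM in vehicle microglia-like cells and 390 CPM with corticosterone. The log2 ratio of corticosterone over vehicle was -0.42 (-0.44 to -0.39), and in border macrophage-like barcodes it was -0.55 (-0.63 to -0.48), from 447 and 304 CPM. Both classes were lower with corticosterone, in neither by 2-fold. Inside the microglia-like clusters described below, the log2 ratio was -0.05 (-0.21 to 0.12) in cluster 0 and -0.11 (-0.26 to 0.03) in cluster 1. Both of these intervals include no difference. In cluster 2 the log2 ratio of Mertk was -0.39 (-0.55 to -0.23).

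Axl (ENSMUSG00000002602, chromosome 7, 25757273 to 25788705, minus strand) is the TAM receptor that macrophages raise in inflammation and under interferon. In vehicle microglia-like cells it was rare, at 2.99 CPM from 98 UMIs, and with corticosterone it reached 32.4 CPM from 2315 UMIs. That is 10.8-fold (8.84 to 13.4), a log2 ratio of 3.44. In border macrophage-like barcodes Axl stood at 8.00 CPM in vehicle and 61.8 CPM with corticosterone, a log2 ratio of 2.95 (2.61 to 3.31). Over the whole classes, both TAM receptors thus differed between the libraries in the same way in both, Mertk being lower and Axl higher.

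Axl was unevenly spread over the microglia-like clusters. A cluster led by interferon-induced genes, cluster 5, held 601 corticosterone cells and 37 vehicle cells, and its corticosterone cells had 104 CPM of Axl (94.0 to 116). Its vehicle cells had 3 Axl UMIs in all. Without this cluster the log2 ratio of Axl was 3.30. The other microglia-like cells fell into clusters that were mostly of 1 library, with 7263 of the 7876 vehicle cells in cluster 1 and 10016 and 4417 of the 15255 corticosterone cells in clusters 0 and 2. Inside cluster 0, the 221 vehicle cells had 20.4 CPM of Axl and the corticosterone cells 29.7 CPM, a log2 ratio of 0.54 (-0.17 to 1.35), an interval that includes no difference. Inside cluster 1, vehicle cells had 2.32 CPM and the 219 corticosterone cells 10.9 CPM, a log2 ratio of 2.23 (1.05 to 3.24) that rests on 9 UMIs in corticosterone. In cluster 2 the log2 ratio was 1.27 (0.21 to 2.59). All 3 of these values are below the 3.44 found over all microglia-like cells. The members took no part in the clustering.

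**Figure D2:**
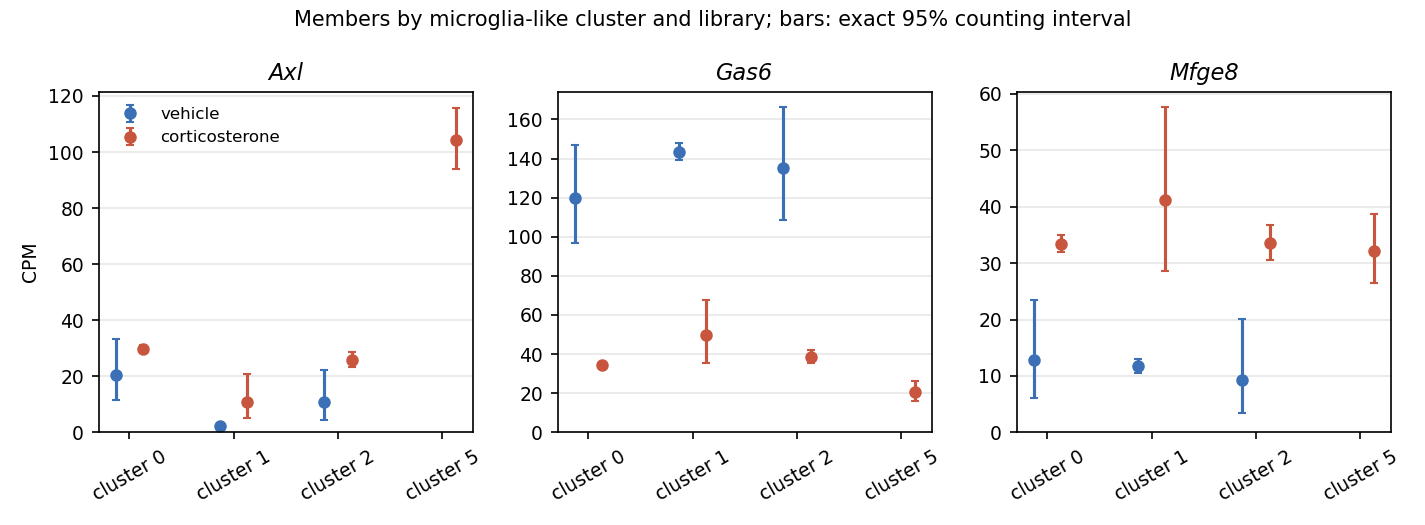
Axl, Gas6 and Mfge8 in UMIs per 1000000 (CPM) by microglia-like cluster, vehicle in blue and corticosterone in red, with exact 95% counting intervals; the 37 vehicle cells of cluster 5 are not drawn. Gas6 is lower and Mfge8 higher with corticosterone in clusters 0, 1 and 2, while Axl in cluster 0 is at 20.4 and 29.7 CPM with intervals that overlap.

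Gas6 (ENSMUSG00000031451, chromosome 8, 13465374 to 13494490, minus strand) codes for the bridge that binds both Mertk and Axl. It stood at 143 CPM in vehicle microglia-like cells and at 34.8 CPM with corticosterone, from 4672 and 2490 UMIs. The level was 4.10-fold lower, a log2 ratio of -2.03 (-2.10 to -1.96). The direction was the same inside the clusters that hold both libraries, where the log2 ratio was -1.80 in cluster 0, -1.53 in cluster 1 and -1.80 in cluster 2. Gas6 was thus lower by more than 2-fold inside each of these clusters.

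In border macrophage-like barcodes Gas6 had 349 CPM in vehicle and 454 CPM with corticosterone, a log2 ratio of 0.38 (0.31 to 0.45). Over the whole classes the directions were opposite, and the difference between them was not tested. The log2 ratio was -0.066 (-0.24 to 0.11) in those barcodes of the border class with less than 25% of the microglia-like share of microglia markers, so the higher level was not seen there. As a share of all Gas6 UMIs of a library, microglia-like cells gave 50.7% in vehicle and 42.6% with corticosterone. The border macrophage-like barcodes gave 39.4% and 52.6%. Over all cells kept, without classes, the log2 ratio of Gas6 was -1.44.

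Border macrophage markers moved the same way as Gas6 in the microglia-like cells. All 11 of 11 were lower with corticosterone there, and they summed to 129 CPM in vehicle and 61.6 CPM with corticosterone, with no marker at 0. In the microglia-like cells without any UMI of these markers, a set added after the data had been seen (5581 in vehicle and 12139 with corticosterone), Gas6 stood at 138 and 34.1 CPM, a log2 ratio of -2.02. Microglia-like cells held 45.8 Gas6 UMIs per Cd36 UMI in vehicle and 22.4 with corticosterone. In border macrophage-like barcodes with less than 25% of the microglia-like share of microglia markers, these ratios were 2.54 and 2.09. The part of border macrophage RNA in the result was not tested beyond these values. Astrocyte markers were lower in microglia-like cells as well, with a sum of 207 CPM in vehicle and 92.4 CPM with corticosterone that was nearly all Slc1a3, and their part in the result was not tested.

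Pros1 (ENSMUSG00000022912, chromosome 16, 62854307 to 62929346, plus strand) codes for protein S, an anticoagulant of plasma that is also the other TAM ligand. Microglia-like cells had 218 CPM in vehicle and 244 CPM with corticosterone, a log2 ratio of 0.16 (0.12 to 0.20). The border macrophage-like levels were 201 and 190 CPM, with a log2 ratio of -0.08 whose interval (-0.18 to 0.02) includes no difference. Of the TAM bridges, Gas6 differed by more than 2-fold in microglia-like cells and Pros1 by 1.12-fold.

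Mfge8 (ENSMUSG00000030605, chromosome 7, 79133768 to 79149060, minus strand), the bridge to the αV integrins, stood at 11.6 CPM in vehicle microglia-like cells and 33.5 CPM with corticosterone, from 379 and 2396 UMIs. It was 2.90-fold higher (2.60 to 3.24), a log2 ratio of 1.53. Inside clusters 0, 1 and 2 the log2 ratio was 1.39 (0.51 to 2.45), 1.82 (1.27 to 2.33) and 1.86 (0.73 to 3.32), so the higher level was not limited to 1 cluster. These values rest on 10 vehicle UMIs in cluster 0, 34 corticosterone UMIs in cluster 1 and 6 vehicle UMIs in cluster 2. Border macrophage-like barcodes had 10.1 CPM in vehicle and 24.98 CPM with corticosterone, a log2 ratio of 1.30 (0.94 to 1.67).

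Its receptor chains differed far less. Itgav (ENSMUSG00000027087, chromosome 2, 83724397 to 83806916, plus strand), the αV chain, had 108 CPM in vehicle microglia-like cells and 139 CPM with corticosterone, a log2 ratio of 0.36 (0.30 to 0.42). Itgb5 (ENSMUSG00000022817, chromosome 16, 33829665 to 33949338, plus strand), the β5 chain, had 1277 and 1658 CPM, a log2 ratio of 0.38 (0.36 to 0.39). The log2 ratio in border macrophage-like barcodes was 0.10 (-0.04 to 0.24) for Itgav and 0.02 (-0.02 to 0.06) for Itgb5. Both chains were thus slightly higher with corticosterone in microglia-like cells, and their intervals in the border class include no difference.

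Stab1 (ENSMUSG00000042286, chromosome 14, 31139013 to 31168641, minus strand) codes for stabilin-1, a scavenger receptor of macrophages and sinusoidal vessels. It stood at 228 CPM in vehicle microglia-like cells and 287 CPM with corticosterone, a log2 ratio of 0.33 (0.29 to 0.37). Border macrophage-like barcodes had 622 and 820 CPM, a log2 ratio of 0.40 (0.35 to 0.45). Over all cells kept, the log2 ratio of Stab1 was 0.05, while the border class took a smaller share of the cells with corticosterone.

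Cd36 (ENSMUSG00000002944, chromosome 5, 17781690 to 17888801, minus strand) codes for a receptor of oxidised lipoproteins and fatty acids. Microglia-like cells had 3.11 CPM in vehicle and 1.55 CPM with corticosterone, from 102 and 111 UMIs, a log2 ratio of -1.004 (-1.41 to -0.60). Border macrophage-like barcodes had 99.9 and 177 CPM, a log2 ratio of 0.82 (0.70 to 0.95). They held 78.1% of the Cd36 UMIs of the vehicle library and 84.7% of those of the corticosterone library. Most Cd36 UMIs thus came from a class that held under 10% of the cells. In the microglia-like cells with no UMI of a border macrophage marker, Cd36 stood at 2.15 and 1.03 CPM, a log2 ratio of -1.07.

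All 9 members in the border class reached a mean of 5 CPM. Axl and Mfge8 were at least 2-fold higher with corticosterone and 0 members were at least 2-fold lower, where 2.85% and 1.9% of 9749 genes were. The members' median log2 ratio was 0.38, beside 0.01 for all these genes. Of the other 7, Cd36, Stab1 and Gas6 were higher by less than 2-fold and Mertk was lower by less than 2-fold. The intervals of Pros1, Itgav and Itgb5 include no difference.

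**Figure D3:**
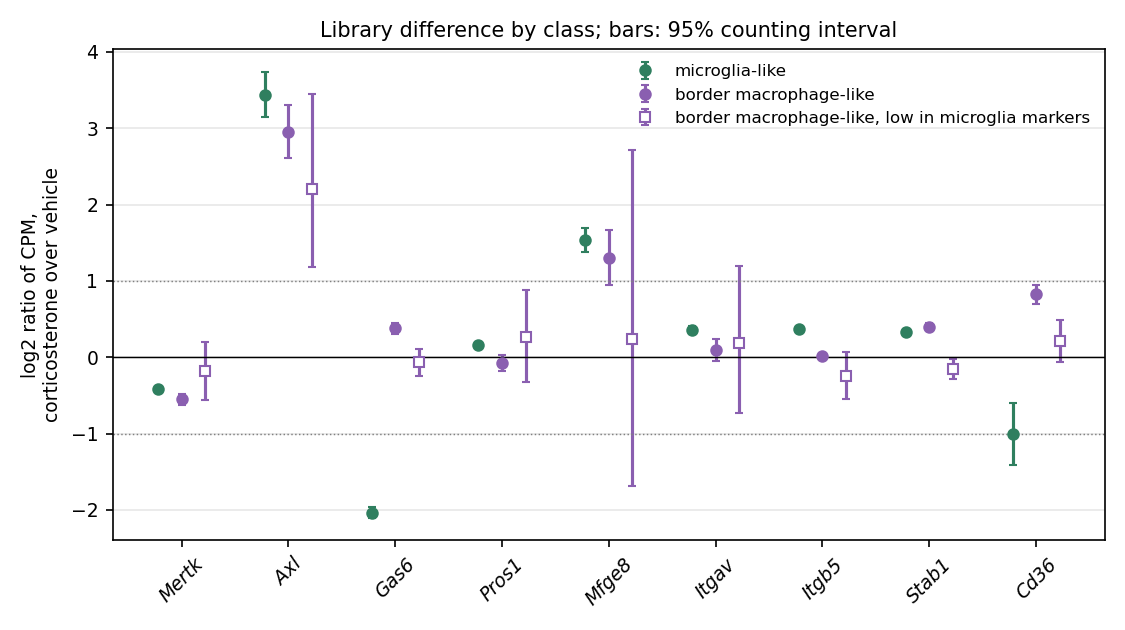
Log2 ratio of corticosterone over vehicle for each member in microglia-like cells (green), in border macrophage-like barcodes (filled purple) and in those of them low in microglia markers (open purple), with 95% counting intervals; dotted lines mark 2-fold. Axl lies above 2-fold in all 3 sets, at 3.44, 2.95 and 2.20, while Gas6 lies at -2.03 in microglia-like cells and at 0.38 and -0.066 in the other sets.

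The members parted into 2 patterns when the classes were compared inside each library. Cd36, Stab1, Gas6 and Axl were higher in border macrophage-like barcodes. Mertk, Pros1, Mfge8, Itgav and Itgb5 were lower there, by less than 2-fold over the whole class. For Mfge8 in vehicle, the interval of the log2 ratio (-0.52 to 0.12) includes no difference. In vehicle, 4 of 9 members were at least 2-fold higher in the border class and 0 at least 2-fold lower, where 2.12% and 0.102% of 9769 genes were. With corticosterone 3 were at least 2-fold higher and 0 lower, where 3.38% and 0.134% of 9690 genes were. The counts of lower members were different in barcodes low in microglia markers, and the part of microglia RNA in this was not tested. Barcodes of the border class with less than 25% of the microglia-like share of microglia markers were read on their own. There 4 members were at least 2-fold lower in vehicle (Mertk, Pros1, Itgav and Itgb5) and 4 with corticosterone (Pros1, Mfge8, Itgav and Itgb5). The share of all genes past 2-fold in these barcodes is not given here, so these counts cannot be set beside the shares above. The 4 microglia markers by which these barcodes were chosen stood at a median of 0.122 and 0.0837 times their microglia-like level. Mertk had 256 and 225 CPM in these barcodes, against 520 and 390 CPM in microglia-like cells. Itgb5 had 379 and 320 CPM, against 1277 and 1658 CPM. In the same barcodes the log2 ratio of border over microglia-like was 2.98 in vehicle and 4.95 with corticosterone for Gas6, 3.17 and 2.68 for Stab1, 7.15 and 8.37 for Cd36, and 3.08 and 1.85 for Axl. Over the whole border class, Cd36 was 32.1-fold higher in vehicle (26.2 to 39.7) and 114-fold higher with corticosterone (93.8 to 140). Gas6 was 2.45-fold higher in vehicle and 13.1-fold higher with corticosterone. Stab1 was 2.73-fold and 2.86-fold higher. Axl was 2.67-fold higher in vehicle (1.97 to 3.62) and 1.91-fold higher with corticosterone (1.72 to 2.12).

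The other 5 members stood at 0.859 to 0.919 times their microglia-like level in vehicle and at 0.680 to 0.781 times with corticosterone. The 4 microglia markers stood at 0.764 to 0.851 times and at 0.628 to 0.688 times in the same barcodes. Over all 10 microglia markers the range was 0.764 to 0.954 times in vehicle and 0.594 to 1.35 times with corticosterone, the highest being Fcrls in both. These 5 members lay inside the range of the 10 microglia markers in each library, but its upper end is set by Fcrls alone. As point values, all 5 lay above the median of the 10 markers, 0.840 times in vehicle and 0.665 times with corticosterone. In vehicle the point values of all 5 also lay above the range of the 4 markers. The counting intervals of Mertk (0.831 to 0.887), Mfge8 (0.697 to 1.09) and Itgav (0.809 to 0.933) reach into that range.

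**Figure D4:**
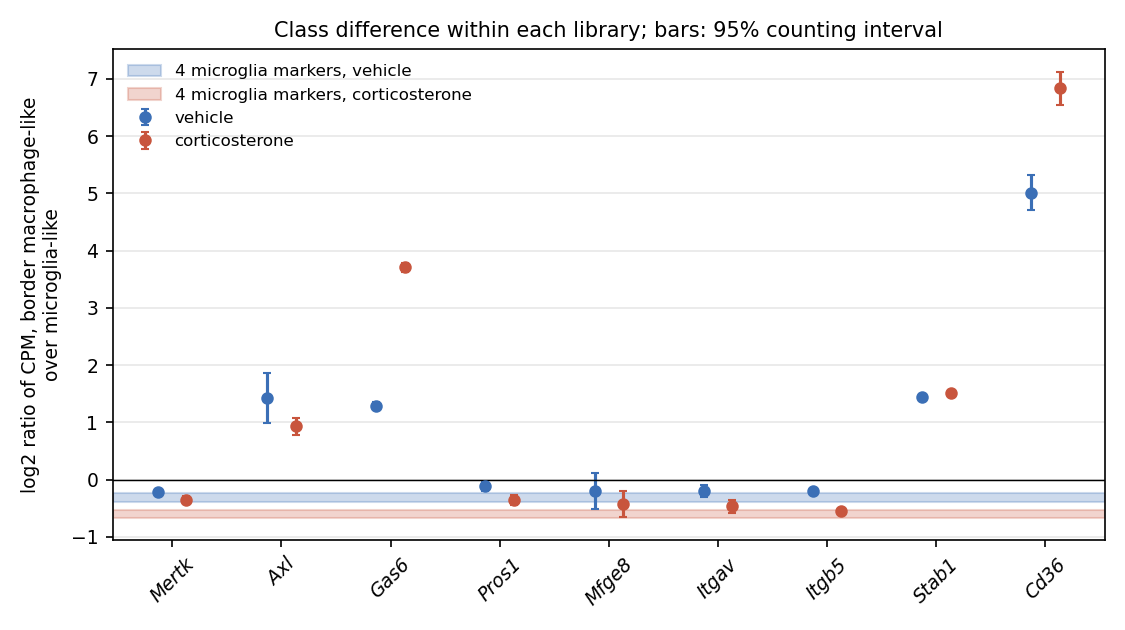
Log2 ratio of CPM in border macrophage-like barcodes over microglia-like cells within the vehicle (blue) and corticosterone (red) library, with 95% counting intervals; shaded bands span the 4 microglia markers in the same barcodes. Cd36, Stab1, Gas6 and Axl lie above 0 and the other 5 members lie below 0, in vehicle at 0.859 to 0.919 times. The vehicle points of these 5 lie above the vehicle band. The intervals of Mertk, Mfge8 and Itgav reach into it, and that of Mfge8 includes 0.

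Border macrophage-like barcodes were also split into 3 sets of equal size in each library by their share of UMIs in the 4 microglia markers. From the highest to the lowest of these, Cd36 went from 49.2 to 270 CPM in vehicle and from 64.2 to 503 CPM with corticosterone. Stab1 went from 421 to 1268 CPM and from 489 to 1797 CPM, and Gas6 from 242 to 692 CPM and from 233 to 1053 CPM. Axl followed them, from 2.87 to 19.6 CPM in vehicle and from 43.3 to 111 CPM with corticosterone. Mertk, Pros1, Itgav and Itgb5 went the opposite way, Itgb5 from 1254 to 751 CPM in vehicle and from 1422 to 339 CPM with corticosterone. Mfge8 stayed between 9.20 and 11.4 CPM in vehicle, and with corticosterone it went from 32.9 CPM in the highest to 10.6 CPM in the lowest.

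The log2 ratio of Mfge8 was accordingly 1.80 (1.29 to 2.33) in the barcodes highest in microglia markers and 0.20 (-1.07 to 1.42) in the lowest, where it rests on 15 and 11 UMIs. These sets are not matched between libraries, since the barcodes of the lowest set had a median of 0.439% of UMIs in the 4 markers in vehicle and 0.0687% with corticosterone.

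**Figure D5:**
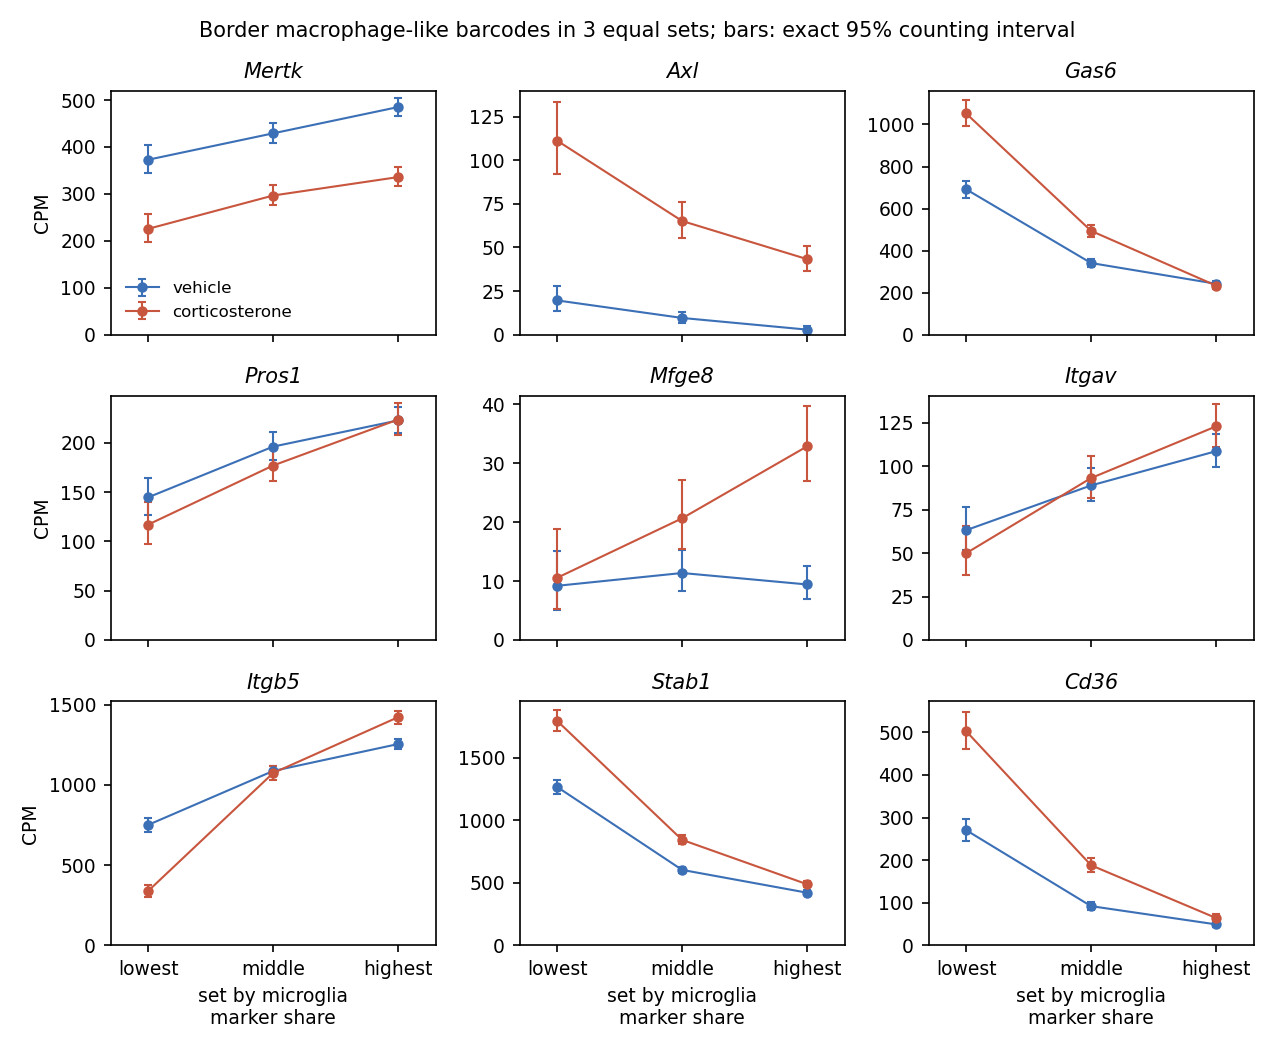
Level of each member in CPM in border macrophage-like barcodes split into 3 equal sets in each library by their share of UMIs in 4 microglia markers, vehicle in blue and corticosterone in red, with exact 95% counting intervals. Gas6, Stab1, Cd36 and Axl are highest where microglia markers are lowest, and Mertk, Pros1, Itgav and Itgb5 are lowest there.

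A limit set by 1 rule for both libraries was therefore added after the data had been seen. It was 25% of each library's own microglia-like median share in these markers, 0.258% of UMIs in vehicle and 0.196% with corticosterone. Barcodes below it were taken, 102 of 1040 in vehicle and 256 of 793 with corticosterone. Of all border macrophage-like barcodes, 47 in vehicle and 39 with corticosterone lay within 20% of the limit on either side. In the barcodes below the limit, Gas6 stood at 1124 CPM in vehicle and 1074 CPM with corticosterone, a log2 ratio of -0.066 (-0.24 to 0.11). Stab1 stood at 2046 and 1837 CPM, a log2 ratio of -0.16 (-0.29 to -0.02). Cd36 stood at 442 and 512 CPM, a log2 ratio of 0.21 (-0.06 to 0.49). These 3 genes were higher with corticosterone over the whole border class, but in the barcodes with the least microglia RNA the intervals of Gas6 and Cd36 include no difference and Stab1 was slightly lower. Axl was higher there too, at 25.3 CPM in vehicle from 8 UMIs and 116 CPM with corticosterone from 115 UMIs, a log2 ratio of 2.20 (1.18 to 3.45). Mfge8 had 3 and 11 UMIs there, a log2 ratio of 0.23 (-1.69 to 2.71), so no difference could be detected at this depth. Mertk, Pros1, Itgav and Itgb5 gave intervals that include no difference.

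Detection per cell was read after thinning every cell to 1000 UMIs, which left out 578 vehicle and 86 corticosterone microglia-like cells. Gas6 was found in 12.4% of vehicle and 3.33% of corticosterone microglia-like cells (36.1% and 13.2% before thinning). Axl was found in 0.329% and 2.68% (1.03% and 10.4% before thinning). Mfge8 was found in 1.21% and 3.41% (4.24% and 13.3% before thinning). In erythroid-like barcodes, which should lack these genes, the shares were 14.1% and 4.71% for Gas6, 0.741% and 2.35% for Axl and 0.741% and 4.71% for Mfge8, over 135 and 85 barcodes. Their median depth was 2486 and 3843.5 UMIs. Those barcodes also carried the 4 microglia markers at a median of 0.783 and 0.856 times the microglia-like level. Shares of cells with a UMI therefore give no separate evidence that a given microglia-like cell expresses a member.

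Other genes of dead-cell uptake were followed in 8 lists of 110 genes. In microglia-like cells 82 of them reached 5 CPM, of which 4 were at least 2-fold higher and 4 at least 2-fold lower with corticosterone, beside 2.24% and 2.03% of all genes at that level. Their median log2 ratio was 0.00. In border macrophage-like barcodes 89 did, with 9 higher and 6 lower, beside 2.85% and 1.9% of all genes, and a median of -0.06. Among other recognition receptors 3 of 12 were higher and 0 lower in microglia-like cells. These were Cd300lf, an inhibitory receptor that binds phosphatidylserine (1.77 CPM in vehicle and 20.3 CPM with corticosterone), the scavenger receptor Msr1 (5.13 and 13.5 CPM) and Itgb2, the β2 integrin chain (258 and 543 CPM). The lipid sensor Trem2 was lowest in that list, at a log2 ratio of -0.57. None of the 6 other bridging molecules passed 2-fold, with Anxa5, which coats phosphatidylserine, at 0.92 and C1qb, a chain of complement C1q, at -0.22.

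Of 16 genes of the engulfment machinery, 0 were higher and 1 was lower: Elmo1, which helps to activate Rac at the phagocytic cup, with 333 CPM in vehicle and 117 CPM with corticosterone. The highest of that list with a mean of at least 20 CPM was Rac2, at 0.28, and below that level Abca7 stood at 0.81. None of 18 genes of phagosome maturation passed 2-fold, between Map1lc3a at -0.60 and Lamp1 at 0.21 among those named by rule. Of 6 receptors for find-me signals, S1pr1 alone was lower by 2-fold (77.8 and 27.0 CPM), and P2ry6, the receptor for UDP, was at 0.65. Of 6 genes of don't-eat-me signalling, Pecam1 (35.6 and 3.83 CPM) and the sialic acid lectin Cd22 (11.3 and 3.40 CPM) were lower by 2-fold, Sirpa was at -0.41 and Pilra at 0.97. None of 10 genes of the response to engulfed cells passed 2-fold, between Rxra at -0.64 and Slc2a1 at 0.40. In the list of TAM receptor shedding and signalling, Pik3r1, a regulatory subunit of PI3 kinase, was lowest at -0.32.

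Border macrophage-like barcodes had Cd300lf and Msr1 higher and Elmo1, Pecam1 and Cd22 lower by 2-fold as well. In addition Timd4, a phosphatidylserine receptor of resident macrophages, stood at 21.6 CPM in vehicle and 60.4 CPM with corticosterone. Cd93, C4b, Anxa5, Vav3 and Lilrb4a were also higher, at log2 ratios of 1.65, 1.16, 1.24, 1.63 and 1.68. Il10, P2ry12 and Gpr34 were lower, at -2.43, -1.11 and -1.05. P2ry12 and Gpr34 are themselves microglia markers, and the microglia markers made up less of these barcodes with corticosterone, as given above. Border macrophage markers made up more of them, with 10 of 11 higher with corticosterone. The part of this makeup in the higher and the lower genes was not tested.

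The genes most like each member were found by the Pearson correlation of log2(CPM + 1) over 18 points, each a cluster in 1 library with at least 100 cells. These points share library, depth and microglia RNA, so the values are a description. Axl was closest to Ifi209 (0.93), an interferon-induced gene, and Bcl2a1d (0.92). Gas6 was closest to Stard8 (0.90) and Gnpda1 (0.89), and Mfge8 to Pdia4 (0.90), an endoplasmic reticulum chaperone, and AI506816 (0.89). Cd36 was closest to Clec10a (0.97) and Ms4a7 (0.96), the latter one of the border macrophage markers. Stab1 was closest to P2rx7 and Lrp6, both at 0.93. Mertk lay closest to Adap2 and Srrm2 (both 0.99), Pros1 to Pald1 (0.99) and Slco2b1 (0.98), Itgav to Extl3 (0.98) and Ktn1 (0.97), and Itgb5 to Tspan7 and Csf1r (both 0.98).

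Several members overlap other genes, and whether the counting used strand is not given in the sources used here. Nt5dc2, on the opposite strand at the Stab1 locus, had 11.9 and 13.6 CPM in microglia-like cells and 11.4 and 26.8 CPM in border macrophage-like barcodes. The genes overlapping Mertk (Gm14011), Gas6 (Tmem255b) and Itgav (Gm13684) had at most 0.519 CPM in either class and library.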

How the data were processed

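One processed matrix per library was used, from cells sorted from mouse prefrontal cortex. The authors deposited raw UMI counts per gene and barcode, which are whole numbers with totals that differ between barcodes. Per the submitters' processing notes, bcl2fastq 2.19 and the build GRCm38 were used; the aligner, counter, annotation and cell calling are not given in the sources used here. The kit was Singleron GEXSCOPE, per the labels' protocols. The files' names say wild type and depression; groups follow the sample records, vehicle and corticosterone.

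Barcodes were kept from 500 UMIs and 300 genes upwards and up to 20% mitochondrial UMIs, 10500 of 10555 and 17883 of 18113. Scrublet (in scanpy 1.11.5) marked 0 doublets in both, which was taken as failure, and none were removed. UMIs scaled to 10000 per cell and log-transformed, 2000 variable genes without the members, 30 components and 15 neighbours entered Leiden clustering at resolution 0.5. A cluster was named X-like from at least 3 markers of 17 classes detected in 10% or more of the cells and 2 times higher than elsewhere, or microglia-like where no other class qualified and microglia markers had a geometric mean of 0.5 or more of the overall one. No name was given where another class led the 10 leading genes, or where cells were shallow and none of their own markers led. UMIs were summed per class and library (CPM, per 1000000 UMIs). A gene was counted at a mean of at least 5 CPM and past the fold at 2-fold. Intervals are exact Poisson, conditional binomial or Clopper-Pearson. The ratio and its interval were tested on simulated data. Scaling by edgeR 4.0.16 and DESeq2 1.42.0 factors was an alternative.

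All 9 members are named, with, for each of 8 lists, the gene highest and lowest in microglia-like cells at 20 CPM or more and those past the fold, and the 2 genes most like each member; 1 list gene that this rule names is not reported here. Members and lists were chosen with earlier results of these data known. Coordinates are from a GENCODE annotation of GRCm38, and promoters from RefSeq, which held all 9 members; no protein sequence is shown.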

Additional observations from a re-analysis of the deposited data

Results flagged for a closer look

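Gas6 differed between the libraries in opposite directions in the 2 classes. Its log2 ratio of corticosterone over vehicle was -2.03 in microglia-like cells and 0.38 in border macrophage-like barcodes, and with 1 library per group the difference between these was not tested. In border macrophage-like barcodes low in microglia markers it was -0.066.

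Cd36 also differed in opposite directions, with a log2 ratio of -1.004 in microglia-like cells and 0.82 in border macrophage-like barcodes, which was not tested either. In border macrophage-like barcodes low in microglia markers it was 0.21 (-0.06 to 0.49), an interval that includes no difference. The value in microglia-like cells rests on 102 and 111 UMIs.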

How the results depend on the processing

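Of 124 recomputed counts of members past 2-fold, 115 stayed within 1.5 times of their main value, and 353 of 477 single log2 ratios moved by less than their counting interval. The microglia-like log2 ratio of corticosterone over vehicle was set beside 14 alternatives, among them all cells kept without classes. It stayed between 2.53 and 3.60 for Axl, between -2.08 and -1.44 for Gas6 and between 1.51 and 1.64 for Mfge8. The ends 2.53, -1.44 and 1.51 are those of all cells kept, not of microglia-like cells. With no minimum CPM, 2 members were lower in microglia-like cells (Gas6, Cd36), and with a minimum of 20 CPM 1 was higher (Mfge8). In the border class 1 member (Axl) was higher with corticosterone with a minimum of 20 CPM. The same held in the lowest of the 3 sets by microglia markers and in the barcodes under 25% of the microglia-like share. In the lowest of the 3 sets, 1 member (Itgb5) was lower, at a log2 ratio of -1.15 (-1.32 to -0.98). That set is not matched between the libraries. Compared with microglia-like cells, 4 members (Pros1, Mfge8, Itgav, Itgb5) were lower by 2-fold with corticosterone in the lowest of the 3 sets and in the low-marker barcodes. In vehicle 4 were lower by 2-fold in the low-marker barcodes (Mertk, Pros1, Itgav, Itgb5). There the log2 ratio of corticosterone over vehicle reversed for Gas6 (-0.066) and Stab1 (-0.16). These sets hold fewer barcodes and less microglia RNA, and the share of all genes past 2-fold in them is not given here. DESeq2 size factors moved all microglia-like ratios by 0.11 and turned no call. The low-marker barcodes, the cells without border markers, the removal of the interferon-led cluster and the removal of the 104 shared barcodes were chosen after seeing the data. No paired analysis was possible because each group has 1 library. No replicate could be left out for the same reason. Depth limits Axl in vehicle, Cd36 in microglia-like cells and Mfge8 in the low-marker barcodes, with 3 and 11 UMIs.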

Other observations

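Axl was highest among the named classes in monocyte-like barcodes, a class also led by class II antigen presentation genes. It stood there at 60.0 CPM in vehicle (48.8 to 73.1) and 128 CPM with corticosterone (110 to 148), from 223 and 156 barcodes. In vehicle these 2.12% of the cells gave 32.6% of all Axl UMIs. At clustering resolution 1, where a dendritic cell-like class was named as well, 216 vehicle barcodes were dendritic-like and 32 monocyte-like, against 95 and 62 with corticosterone. The makeup of this class thus differed between the libraries, and its Axl levels are not a comparison of 1 cell type. Mfge8 stood highest in endothelial-like barcodes, at 43.6 CPM in vehicle (23.9 to 73.2) and 121 CPM with corticosterone (76.8 to 182), from 14 and 23 UMIs. That was 3.77 and 3.62 times its microglia-like level, and in vehicle its interval overlaps that of erythroid-like barcodes, which had 26.2 CPM. The leading genes of the endothelial-like cluster also held Slc1a2 and Rgs5, listed here as astrocyte and pericyte markers. Its Mfge8 levels therefore cannot be read as those of 1 cell type.

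An unnamed cluster of 664 vehicle and 1169 corticosterone barcodes had low depth, with medians of 1068 and 1251 UMIs. Mertk stood at 1124 and 1102 CPM in it, 2.16 and 2.83 times its microglia-like level. Itgav stood at 1.32 and 1.76 times, Stab1 at 1.57 and 1.46 times, Pros1 at 0.990 and 1.29 times and Itgb5 at 0.847 and 0.905 times. Over all genes compared, those spanning at least 50 kb had a median log2 ratio of 0.60 in vehicle and 0.94 with corticosterone against microglia-like cells, and shorter genes -0.19 and -0.34. Mertk spans 103.939 kb, Pros1 75.04 kb, Stab1 29.629 kb and Itgb5, the longest member, 119.674 kb, and the part of gene span in these values was not tested.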
